A study of Homo sapiens with 24 samples.

Results

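The genes described here are 10 AP-1 and immediate early factors, FOS, FOSB, FOSL1, FOSL2, JUN, JUNB, JUND, EGR1, MAFF and IER2, chosen by symbol. All 10 were found, once each, among the 18889 genes of the normalized expression table. They were measured by RNA-Seq in ZR-75-30, HCC1500 and MDA-MB-175, 3 lines of human breast cancer that express the estrogen receptor (ER+). Cells of each line were grown for 48 hours in 5 mM glucose (low glucose, LG) or 25 mM glucose (high glucose, HG), in medium without serum under both conditions and after a period in low glucose. There were 4 cultures per line and condition, 24 in all. Each line is a single established line, and no osmolarity control is labelled among these samples. Where nothing states how the 4 cultures of a group were separated, the p-values measure only the spread between them.

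AP-1 is a family of dimeric transcription factors that pair through a basic leucine zipper (bZIP). FOS proteins bind DNA as partners of JUN proteins, while JUN proteins can also pair with each other. MAFF is a small MAF protein, a bZIP factor without a transactivation domain that partners CNC factors such as NRF2. EGR1 is a zinc finger factor outside the AP-1 family, and IER2 is a nuclear immediate early protein. Immediate early genes are known for fast, brief induction by growth factors and stress through MAPK signaling, serum response factor (SRF) and CREB. In breast cells, JUN and FOS factors are known from work on proliferation, invasion and endocrine resistance.

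The DNA just upstream of 4 of these genes, chosen by their expression, is shown. FOS and EGR1 moved together and in opposite directions between lines. MAFF and JUND rose where FOS and EGR1 fell, and MAFF also rose in HCC1500, where FOS and EGR1 rose. The sequences are from RefSeq on GRCh38.p14 and run 5′ to 3′ on the gene's strand over the 250 bases before the annotated start site. Capitals mark the cAMP response element (CRE) core TGACGT or its complement ACGTCA, the full CRE TGACGTCA, which contains the core on both strands, and CArG boxes, the SRF motif.
FOS, chr14:75278578-75278827, plus strand: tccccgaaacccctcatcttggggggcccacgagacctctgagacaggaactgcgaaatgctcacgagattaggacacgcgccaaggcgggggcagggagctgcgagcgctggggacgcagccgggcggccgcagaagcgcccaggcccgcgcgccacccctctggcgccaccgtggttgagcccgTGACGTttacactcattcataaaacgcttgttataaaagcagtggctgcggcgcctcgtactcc
EGR1, chr5:138465229-138465478, plus strand: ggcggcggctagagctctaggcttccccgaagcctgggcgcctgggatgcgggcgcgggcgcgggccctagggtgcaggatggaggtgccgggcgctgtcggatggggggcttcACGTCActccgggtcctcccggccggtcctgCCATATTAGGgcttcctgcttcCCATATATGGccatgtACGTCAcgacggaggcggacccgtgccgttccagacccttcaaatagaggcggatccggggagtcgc
MAFF, first of the annotated start sites, chr22:38201744-38201993, plus strand: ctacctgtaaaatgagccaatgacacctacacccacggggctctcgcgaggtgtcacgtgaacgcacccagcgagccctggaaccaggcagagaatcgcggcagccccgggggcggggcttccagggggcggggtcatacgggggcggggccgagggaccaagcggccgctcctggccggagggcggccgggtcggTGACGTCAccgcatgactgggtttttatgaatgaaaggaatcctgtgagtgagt
JUND, chr19:18281623-18281872, minus strand: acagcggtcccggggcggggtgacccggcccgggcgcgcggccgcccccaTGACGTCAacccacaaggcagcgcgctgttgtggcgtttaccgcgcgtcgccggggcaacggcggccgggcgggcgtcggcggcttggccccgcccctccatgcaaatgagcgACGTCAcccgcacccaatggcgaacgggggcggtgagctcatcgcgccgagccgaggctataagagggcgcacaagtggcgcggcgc

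Promoters were on file for 9 of the 10 genes (all but FOSL1), with 2 start sites for MAFF. The CRE core, searched on both strands, was present upstream of FOS at -64, FOSB at -60, FOSL2 at -66, EGR1 at -136 and -67, JUND at -200, -198 and -87, and the first MAFF start site at -54 and -52, counted from the start site. It was found in 7.102% of 35116 promoters of the same length. The full CRE was present upstream of JUND and of the first MAFF start site, against 1.646% of promoters. EGR1 alone among the 10 windows held CArG boxes, at -105 and -83, against 1.159% of promoters. These letters were not in the windows of JUN, JUNB and IER2, and the AP-1 site TGACTCA was in none of the 10 windows, against 4.203% of promoters. Sequence further than 250 bases upstream was not searched, so a site there, for FOS or any other gene, would be missed. The matches describe the sequence only, and no link between them and the expression values was tested.

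The recovered reads numbered 9140024 to 17998819 per library. In HCC1500 they did not overlap between LG (13190982 to 17998819) and HG (9423472 to 12140912), and the part of depth in the HCC1500 results was not tested. TXNIP, a gene induced by glucose, was higher in all HG than LG cultures of each line, with log2 rises of 0.39 (MDA-MB-175), 0.76 (ZR-75-30) and 1.02 (HCC1500, or 0.99 without HG replicate 3). The luminal markers ESR1, GATA3, FOXA1, KRT8, KRT18, KRT19 and EPCAM stood at 255 or higher in every library, while CDH1 stood at 49.0 to 62.0 in ZR-75-30 and 5447 or higher in the other lines. Of the markers of other cell types, PDGFRB did not exceed 1.56, CD68 reached 43.9, VWF reached 55.6 and COL1A1 ranged from 67.1 to 256. In bulk RNA, fewer cells expressing a gene and less RNA per cell cannot be told apart. One library, HG replicate 3 of HCC1500, stood apart from its group. Its log2 values exceeded those of the other HG cultures by a median of 1.07 for genes with up to 2000 bases of annotated exon, and were lower by a median of -0.30 for genes above 8000 bases. The glucose changes in HCC1500 are therefore given with and without it.

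In ZR-75-30, high glucose lowered most of these factors, while in HCC1500 it raised FOS and EGR1, and MDA-MB-175 had a fall of FOS and EGR1 beside rises of other members. MAFF was the gene that rose in all 3 lines. With limma on log2(value + 1) and a Benjamini-Hochberg adjusted p under 0.05, 5 of the 10 genes were higher and 2 lower in MDA-MB-175, against 11.9% higher and 13.7% lower among all genes tested. In ZR-75-30, 3 were higher and 6 lower, against 23.4% and 22.7%. In HCC1500, 3 were higher and 0 lower, against 7.46% and 13.0%. Median-of-ratios scaling gave 10.5% higher and 11.0% lower among all HCC1500 genes. Without HG replicate 3, 3 were higher and 3 lower in HCC1500, against 20.9% and 37.7%. Under median-of-ratios scaling of those cultures, 5 were higher and 0 lower, against 28.7% and 28.2%. LG and HG cultures did not overlap for 7 of the 10 genes in MDA-MB-175, for 9 in ZR-75-30 and for 4 in HCC1500, or 5 without HG replicate 3. Among all genes tested this share was 26.6%, 42.0%, 32.4% and 58.1%, respectively. All log2 changes are of value + 1, so that those of weakly expressed genes come out too small.

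**Figure D1:**
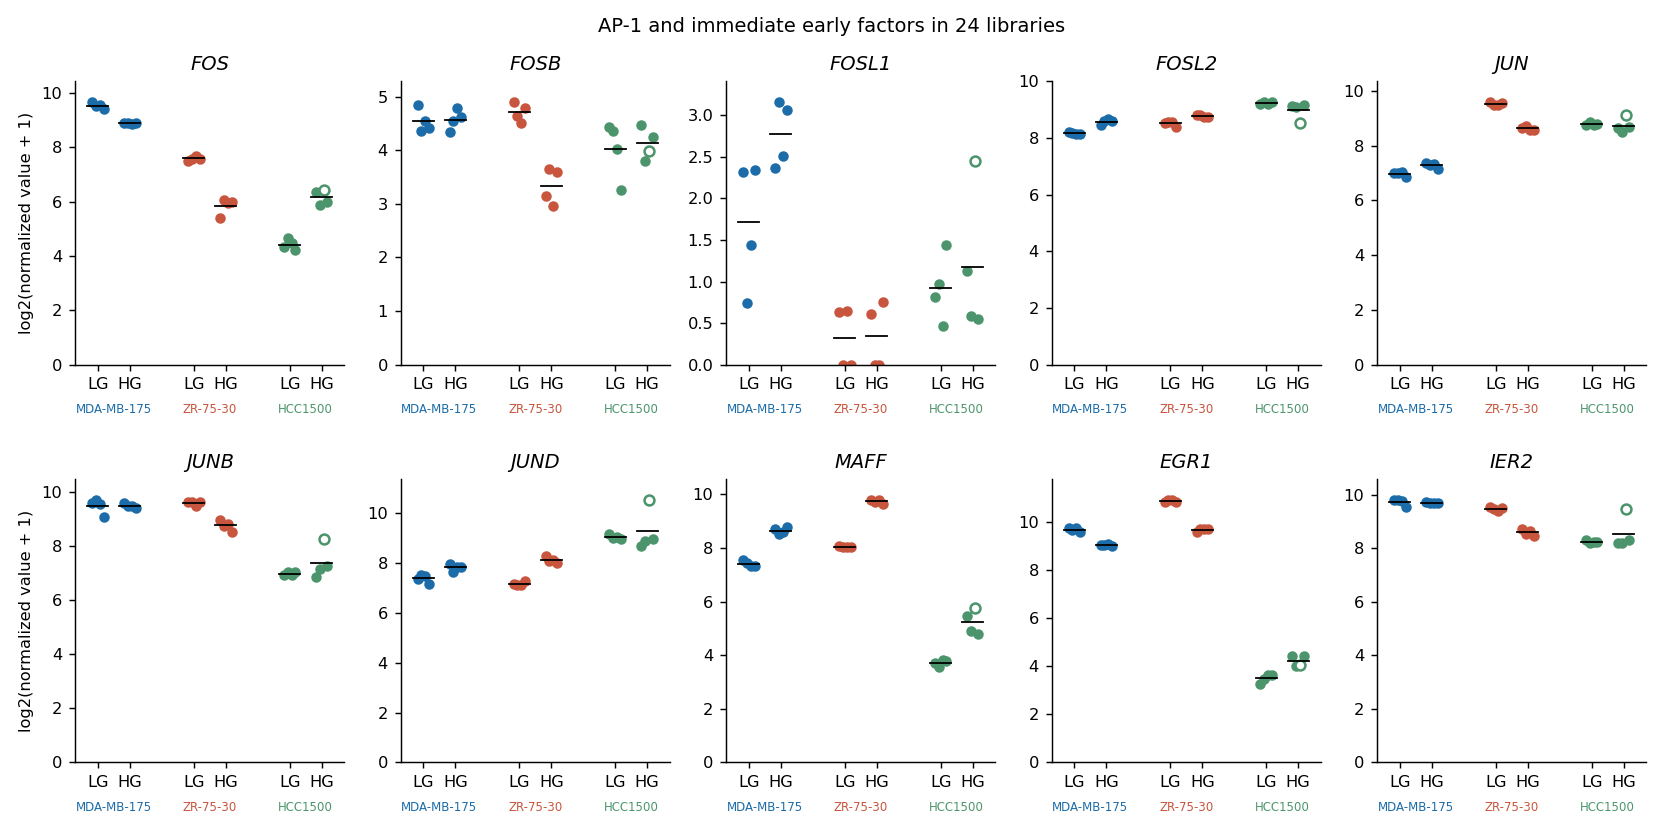
Normalized values of the 10 genes in 24 libraries, as log2(value + 1), by line and condition, with 1 point per culture, a bar at the group mean and HG replicate 3 of HCC1500 as an open point. FOS and EGR1 were lower in HG in ZR-75-30 and MDA-MB-175 but higher in HG in HCC1500, and MAFF was higher in HG in each line.

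FOS (chr14:75745529-75748933, plus strand, GRCh37), the prototype partner of JUN, changed in both directions. It had the largest log2 change of the 10 genes in ZR-75-30 and in HCC1500, though not in MDA-MB-175, where MAFF and FOSL1 had larger ones. The ZR-75-30 lead over MAFF (1.69) was small and reversed without HG replicate 1 (FOS -1.59, MAFF 1.67). In MDA-MB-175, the normalized values were 811, 732, 744 and 684 in LG and 472, 474, 465 and 479 in HG. All HG cultures lay below all LG cultures, and FOS fell by 0.65 ± 0.05 (SE) on the log2 scale (adjusted p = 1.2e-07, limma). In ZR-75-30, the values were 181, 189.9, 205 and 191 in LG and 40.6, 64.8, 61.2 and 63.1 in HG. The groups were again apart, and FOS fell by 1.74 ± 0.12 on the log2 scale (adjusted p = 1.3e-09, limma), to 0.300 of its LG mean. In HCC1500, FOS started low, at 19.0, 24.1, 21.1 and 17.7 in LG, and stood at 80.2, 57.2, 86.1 and 61.9 in HG. There every HG culture lay above every LG culture, and FOS rose 3.49-fold in mean value, or by 1.74 ± 0.18 on the log2 scale (adjusted p = 3.4e-04, limma). Without HG replicate 3, which held the highest of these values, the log2 rise was 1.65 ± 0.15 (adjusted p = 4.2e-08, limma).

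FOSB, a FOS paralog, was weakly expressed in all lines. Its values in ZR-75-30 were 28.8, 23.9, 21.6 and 26.7 in LG and 7.81, 11.5, 6.80 and 11.0 in HG. The groups did not overlap, and FOSB fell by 1.38 ± 0.22 on the log2 scale (adjusted p = 4.7e-05, limma). In the other lines LG and HG cultures overlapped, with values between 19.1 and 27.7 in MDA-MB-175 and between 8.61 and 21.2 in HCC1500. The former had a log2 change of 0.03 ± 0.17 (adjusted p = 0.917, limma) and the latter one of 0.11 ± 0.28 (adjusted p = 0.831, limma), or 0.16 ± 0.26 without HG replicate 3 (adjusted p = 0.629, limma).

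FOSL2 (FRA2), a FOS family member without the FOS transactivation domain, rose modestly in 2 lines. In MDA-MB-175 it stood at 296, 289, 280.1 and 279.8 in LG and 347, 389, 411 and 384 in HG. All HG cultures were higher, with a log2 rise of 0.42 ± 0.06 (adjusted p = 5.1e-05, limma). In ZR-75-30 it ranged from 336 to 381 in LG and from 425 to 444 in HG, a log2 rise of 0.25 ± 0.05 (adjusted p = 4.3e-04, limma). In HCC1500 it ranged from 581 to 617 in LG and stood at 558, 543, 373 and 569.6 in HG. Every HG culture was below every LG culture, but HG replicate 3 was far lower than the rest, and the log2 change of -0.25 ± 0.14 did not pass the test (adjusted p = 0.236, limma). Without that library it was -0.11 ± 0.04 (adjusted p = 0.0161, limma), beside a median of -0.12 over all genes tested, and under median-of-ratios scaling it turned to 0.01.

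FOSL1 (FRA1), a FOS family member known from invasive, ER-negative cells, was at or near the detection limit. It had 0 or 1 read per library in ZR-75-30 and 1 to 6 reads in HCC1500, where its log2 change was 0.25 ± 0.46 (adjusted p = 0.751, limma) and -0.17 ± 0.43 without HG replicate 3 (adjusted p = 0.753, limma). In MDA-MB-175 its values were 4.01, 0.670, 1.71 and 4.07 in LG and 4.16, 7.95, 4.68 and 7.36 in HG, from 1 to 10 and 10 to 14 reads. The log2 rise of 1.06 ± 0.37 passed the threshold narrowly (adjusted p = 0.0462, limma) and did not pass it with edgeR on the recovered reads (adjusted p = 0.0922) or in the limma fit on all 24 libraries (adjusted p = 0.0899).

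**Figure D2:**
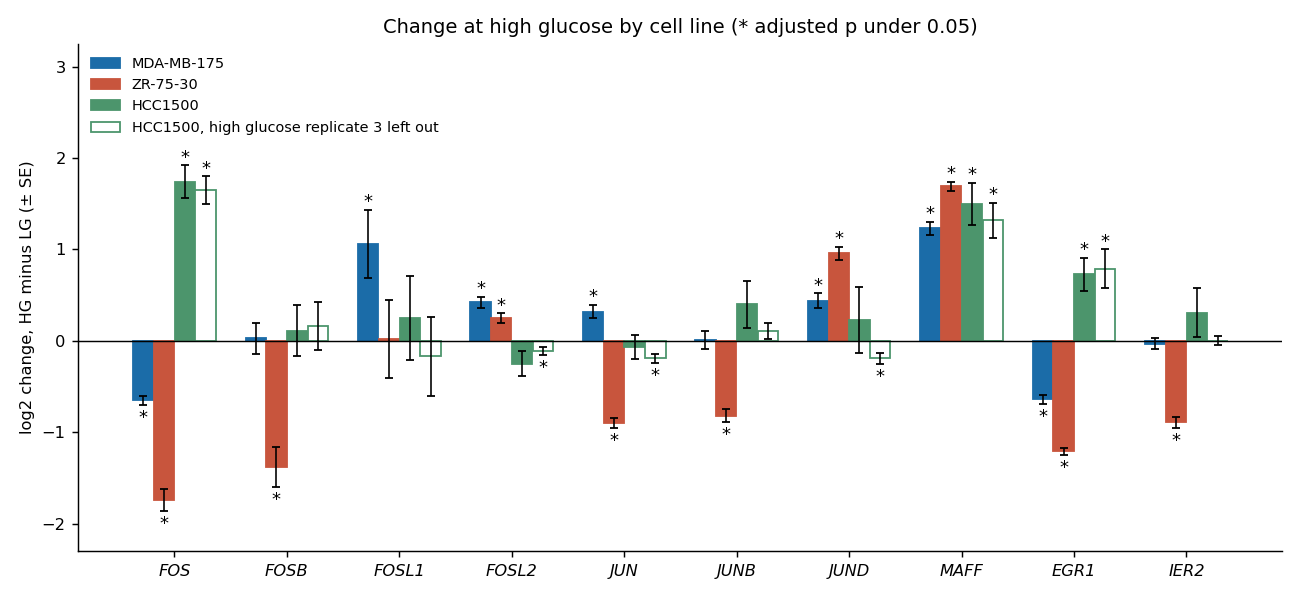
Log2 change of each gene at high against low glucose in each line (bars, limma, with SE), with open bars for HCC1500 without HG replicate 3 and asterisks at an adjusted p under 0.05. FOS ran from -1.74 in ZR-75-30 to 1.74 in HCC1500, whereas MAFF ran from 1.23 to 1.69.

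JUN (chr1:59242517-59249720, minus strand, GRCh37), the central AP-1 subunit, also differed in direction between lines. In ZR-75-30 it stood at 771, 712, 722 and 758 in LG and 403, 419, 382 and 378 in HG. The HG cultures were all lower, and JUN fell by 0.90 ± 0.05 on the log2 scale (adjusted p = 3.0e-11, limma). In MDA-MB-175, where JUN was lowest, it stood at 127, 126, 129 and 116 in LG and 165, 157, 159 and 142 in HG. The groups were apart the other way, with a log2 rise of 0.32 ± 0.07 (adjusted p = 0.00357, limma). In HCC1500 JUN ranged from 431 to 469 in LG and stood at 394, 359, 550.2 and 412 in HG. HG replicate 3 lay above and the other HG cultures below all LG cultures, and the log2 change was -0.07 ± 0.13 (adjusted p = 0.766, limma). Without that library it was -0.19 ± 0.05 (adjusted p = 0.00233, limma). On the same cultures this passed the threshold under CPM scaling (-0.17, adjusted p = 0.00422, limma) but not with edgeR, DESeq2 or median-of-ratios scaling.

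JUNB, often an antagonist of JUN, and IER2 behaved alike. JUNB in ZR-75-30 stood at 776, 778, 699 and 784 in LG and 491, 429, 450.5 and 359.8 in HG, and IER2 at 750.1, 708, 672 and 732 in LG and 422, 371, 398 and 352 in HG. Neither gene had overlapping groups there. JUNB fell by 0.82 ± 0.07 (adjusted p = 2.6e-08, limma) and IER2 fell by 0.89 ± 0.06 on the log2 scale (adjusted p = 3.0e-10, limma). In MDA-MB-175 the groups overlapped for both, with log2 changes of 0.01 ± 0.10 for JUNB (adjusted p = 0.933, limma) and -0.03 ± 0.06 for IER2 (adjusted p = 0.746, limma). In HCC1500, JUNB stood at 114, 141, 301 and 149.6 in HG against 119 to 129.6 in LG, and IER2 at 294, 293, 711 and 313 against 289 to 314. HG replicate 3 was the highest library for both, and neither passed the test, at 0.40 ± 0.26 for JUNB (adjusted p = 0.331, limma) and 0.31 ± 0.27 for IER2 (adjusted p = 0.465, limma). Without it, the log2 change was -3.5e-04 ± 0.05 for IER2 (SE) and, for JUNB, 0.11 ± 0.09 (adjusted p = 0.287, limma). With edgeR on the recovered reads of those cultures, JUNB rose by 0.24 (adjusted p = 0.0187), and under median-of-ratios scaling JUNB rose by 0.23 (adjusted p = 0.027, limma) and IER2 by 0.12 (adjusted p = 0.0418, limma). Exons of JUNB share 259 bases with HOOK2, and exons of IER2 share 946 bases with the noncoding gene ENSG00000267598, both on the opposite strand. Whether the counting used strand is not given for these libraries, so reads there cannot be assigned with certainty.

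JUND, a JUN paralog known for steady rather than induced expression, rose where JUNB fell. In ZR-75-30 it stood at 140.2, 138, 138 and 153 in LG and 308, 272, 277 and 258 in HG, a 1.96-fold rise in mean value. The groups were apart, with a log2 rise of 0.96 ± 0.07 (adjusted p = 1.5e-09, limma). In MDA-MB-175 it stood at 163, 182, 178 and 143 in LG and 249, 201, 228 and 229.7 in HG, a log2 rise of 0.44 ± 0.08 (adjusted p = 9.1e-04, limma) that did not pass in the fit on all 24 libraries (adjusted p = 0.289, limma). In HCC1500 it ranged from 493 to 572 in LG and stood at 415, 469, 1486 and 503 in HG. The whole of the HCC1500 mean rise came from HG replicate 3, and the log2 change was 0.23 ± 0.36 with it (adjusted p = 0.711, limma) and -0.19 ± 0.06 without it (adjusted p = 0.0078, limma). The latter passed the threshold under CPM scaling but not under median-of-ratios scaling (-0.08, adjusted p = 0.283), where all genes had less of a downward shift. JUND has 1929 bases of annotated exon, in the length class that was highest in that library.

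**Figure D3:**
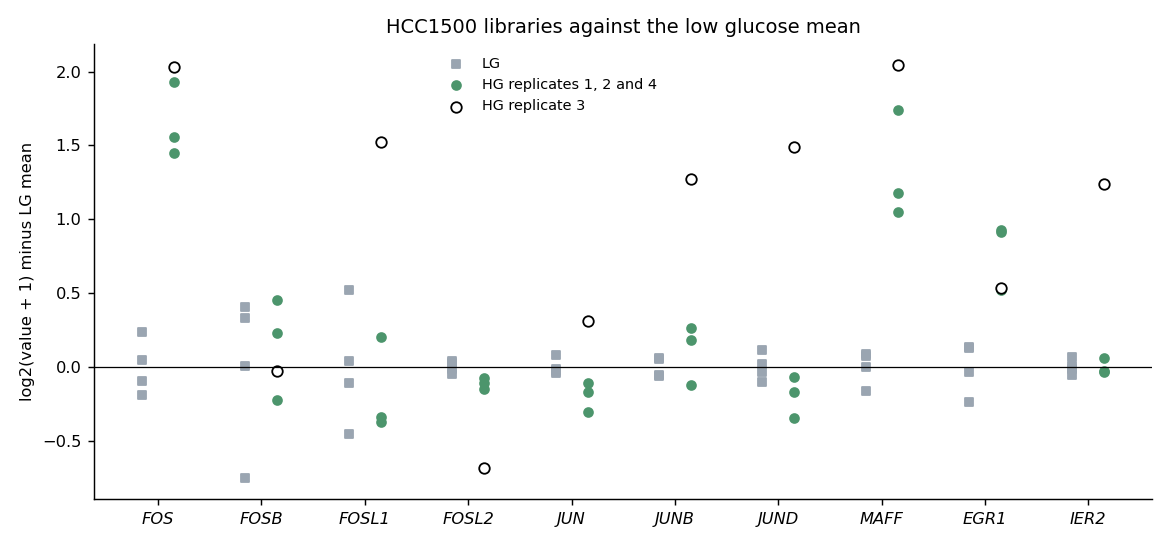
Each HCC1500 library against the LG mean of the gene, as a difference of log2(value + 1), with LG cultures as squares, HG cultures as filled circles and HG replicate 3 as open circles. HG replicate 3 was the highest library for JUND (1486), IER2 (711), JUN (550.2), JUNB (301), FOS (86.1), MAFF (53.5) and FOSL1 (4.46). It was the lowest for FOSL2 (373). FOS and MAFF were higher in each HG culture than in every LG culture.

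MAFF (chr22:38596774-38612514, plus strand, GRCh37) rose in every line. In MDA-MB-175 it stood at 187, 172, 160.0 and 161 in LG and 416, 367, 381 and 433 in HG, a log2 rise of 1.23 ± 0.07 (adjusted p = 2.6e-09, limma). In ZR-75-30 it stood at 266, 264, 259.8 and 264 in LG and 880.1, 843, 886 and 796 in HG, a log2 rise of 1.69 ± 0.05 (adjusted p = 6.7e-15, limma). In HCC1500 it stood at 12.2, 10.8, 13.0 and 12.9 in LG and 43.1, 28.9, 53.5 and 26.3 in HG. All HG cultures were above all LG cultures in each of the 3 lines. The log2 rise in HCC1500 was 1.50 ± 0.23 (adjusted p = 0.00285, limma), and 1.32 ± 0.19 without HG replicate 3 (adjusted p = 1.2e-05, limma). In mean value this was 2.35-fold, 3.23-fold and 3.10-fold in the 3 lines. MAFF shares 326 exon bases with PLA2G6 on the opposite strand, with the same limit as for JUNB.

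EGR1 (chr5:137801168-137804992, plus strand, GRCh37) moved with FOS. In MDA-MB-175 it stood at 862, 827, 867 and 787 in LG and 531, 538, 552 and 519 in HG, and fell by 0.64 ± 0.05 on the log2 scale (adjusted p = 3.4e-08, limma). In ZR-75-30 it stood at 1849.8, 1968, 1970.4 and 1870.5 in LG and 771, 838, 849.5 and 845 in HG, and fell by 1.21 ± 0.04 (adjusted p = 1.0e-13, limma). Both falls left the groups apart. In HCC1500 EGR1 was weakly expressed, at 8.74, 10.2, 11.5 and 11.6 in LG and 20.6, 15.4, 15.6 and 20.8 in HG, from 21 to 45 reads per library. The HG cultures were all higher there, with a log2 rise of 0.73 ± 0.18 (adjusted p = 0.0221, limma), and 0.79 ± 0.21 without HG replicate 3 (adjusted p = 0.003, limma). This rise lost its call when HG replicate 1 or 4 or LG replicate 1 or 2 was left out (adjusted p = 0.0587 to 0.0712, limma), and with the culture number as a replicate block (adjusted p = 0.0809, limma).

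Whether the glucose change itself differed between lines was tested with the interaction of line and glucose in limma over all 24 libraries. It passed for 7 of the 10 genes, FOS, FOSB, FOSL2, JUN, JUNB, EGR1 and IER2, against 29.3% of all genes. Without HG replicate 3 of HCC1500 it passed for 9, with JUND and MAFF added, against 48.6%. The FOS change was 3.48 ± 0.19 (SE) higher in HCC1500 than in ZR-75-30 (adjusted p = 2.6e-11, limma) and 2.39 ± 0.19 higher than in MDA-MB-175 (adjusted p = 7.5e-09, limma), in log2 units. The EGR1 change was 1.94 ± 0.13 and 1.37 ± 0.13 higher in HCC1500 than in these lines (adjusted p = 3.0e-10 and 8.8e-08, limma). With HG replicate 3 left out, these differences were 3.39 and 2.29 for FOS, and the latter was 1.43 for EGR1. The 3 comparisons of lines share libraries with one another. Between ZR-75-30 and MDA-MB-175, JUN had the smallest adjusted p of the 10 genes, with a difference in change of -1.22 ± 0.12 in ZR-75-30 minus MDA-MB-175 (adjusted p = 7.4e-07, limma). For MAFF the interaction did not pass with all libraries (adjusted p = 0.203, limma). It passed on all libraries with CPM scaling (adjusted p = 0.0219, limma), edgeR (adjusted p = 0.0254) and DESeq2 (adjusted p = 6.8e-05), and with limma without HG replicate 3 (adjusted p = 0.0219), where the ZR-75-30 rise exceeded the MDA-MB-175 rise by 0.46 ± 0.14 (adjusted p = 0.0183, limma).

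The lines also differed in how much of each factor they held at low glucose. HCC1500 had little FOS, EGR1 and MAFF and much JUND and FOSL2, whereas ZR-75-30 was rich in JUN and EGR1. In ZR-75-30 against MDA-MB-175, 4 of the 10 genes were higher and 2 lower, against 24.3% and 39.5% of all genes, or 17.9% and 47.6% under CPM scaling. In HCC1500 against MDA-MB-175, 3 were higher and 6 lower, against 37.9% and 34.7%. In HCC1500 against ZR-75-30, 2 were higher and 7 lower, against 44.0% and 29.0%, or 53.5% and 21.8% under CPM scaling. The median over all genes was -0.18, 0.05 and 0.23 in these comparisons on the log2 scale, so differences of that size are not distinct from the bulk of genes.

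EGR1 had the widest range. At low glucose its mean was 1915 ± 63.6 (SD, n = 4) in ZR-75-30, 836 ± 37.1 in MDA-MB-175 and 10.5 ± 1.35 in HCC1500, 79.5-fold lower in HCC1500 than in MDA-MB-175. At high glucose it was still 29.6-fold lower than in MDA-MB-175 and 45.6-fold lower than in ZR-75-30, with log2 differences of -4.82 and -5.45, or -4.76 and -5.38 without HG replicate 3. FOS ran in another order, from 743 ± 52.1 in MDA-MB-175 through 191 ± 9.84 in ZR-75-30 to 20.5 ± 2.82 in HCC1500. At high glucose ZR-75-30 (57.4 ± 11.3) and HCC1500 (71.4 ± 14.0) overlapped for FOS, and their log2 difference of 0.31 (adjusted p = 0.0403, limma) did not pass without HG replicate 3 (0.22, adjusted p = 0.128). MAFF was 13.9-fold lower in HCC1500 than in MDA-MB-175 and 21.6-fold lower than in ZR-75-30 at low glucose, and at high glucose these gaps were 10.5-fold and 22.4-fold, with log2 differences of -3.42 and -4.51, or -3.60 and -4.69 without HG replicate 3.

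JUN was 5.95-fold higher in ZR-75-30 and 3.56-fold higher in HCC1500 than in low glucose MDA-MB-175, and the former was 2.54-fold at high glucose. There ZR-75-30 and HCC1500 did not pass the test for JUN (log2 difference 0.10 ± 0.09, adjusted p = 0.325, limma). JUND was 3.17-fold higher in HCC1500 than in MDA-MB-175 and 3.72-fold higher than in ZR-75-30 at low glucose. Between the other lines the log2 difference of JUND was -0.22 (adjusted p = 0.438, limma), which passed in the fit without HG replicate 3 of HCC1500 (adjusted p = 0.0142, limma) and under CPM scaling (-0.44, adjusted p = 0.0426, limma). JUNB was 5.77-fold lower in HCC1500 than in MDA-MB-175, while MDA-MB-175 and ZR-75-30 did not pass the test (adjusted p = 0.669, limma). IER2 was 2.83-fold lower in HCC1500 than in MDA-MB-175, and FOSL2 was 2.10-fold higher. FOSB differed least, with low glucose means of 22.4 ± 3.70 for MDA-MB-175, 25.3 ± 3.14 for ZR-75-30 and 16.0 ± 5.38 for HCC1500.

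Levels of different genes were compared per kb of annotated exon. At low glucose the highest normalized value per kb was JUNB in MDA-MB-175 (392 ± 70.0, SD, n = 4), EGR1 in ZR-75-30 (610.4 ± 20.3) and JUND in HCC1500 (274 ± 17.4). In MDA-MB-175 JUNB was followed by IER2 (276 ± 24.4), EGR1 (266 ± 11.8) and FOS (233 ± 16.4), where IER2 and EGR1 lay within their spread. In ZR-75-30 EGR1 was followed by JUNB (415 ± 22.0), IER2 (232 ± 11.0) and JUN (204 ± 7.79), and FOS stood at 60.1 ± 3.09. In HCC1500 JUND was followed by JUN (122 ± 4.77), IER2 (97.4 ± 3.32) and FOSL2 (83.9 ± 2.29), whereas FOS stood at 6.43 ± 0.886 and EGR1 at 3.35 ± 0.431. FOSB was below 5.0 per kb on average in every line and condition.

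**Figure D4:**
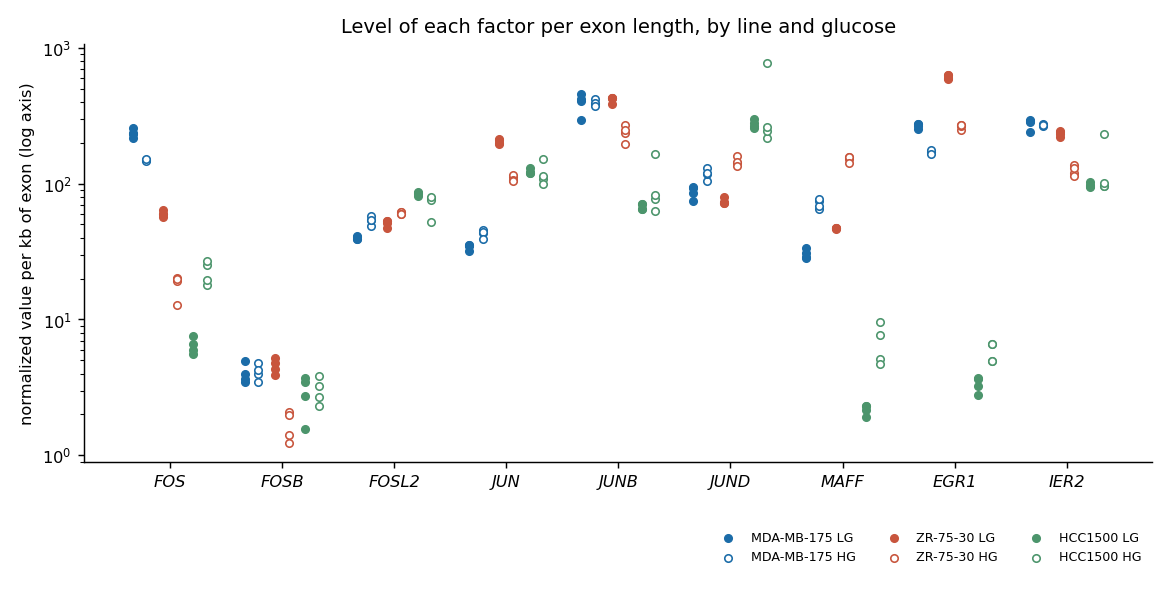
Normalized value per kb of annotated exon of 9 of the genes in each library, on a log axis, with LG cultures as filled and HG cultures as open points (FOSL1, with values of 0, is not drawn). EGR1 was furthest below both other lines in HCC1500, and JUND was highest in HCC1500.

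Other genes of the pathway were read from lists written by hand, with earlier results of these data known. Their counts are therefore a description, and lists can share genes, such as ATF3. Among 19 other bZIP factors, 9 of 18 tested rose and 1 fell in MDA-MB-175, 10 of 17 rose and 2 fell in ZR-75-30, and 5 of 15 rose and 0 fell in HCC1500 (8 and 1 without HG replicate 3). Among all genes tested, 11.9% rose and 13.7% fell in MDA-MB-175, 23.4% and 22.7% for ZR-75-30, and 7.46% and 13.0% for HCC1500 (20.9% and 37.7% without HG replicate 3). The list medians were 0.20, 0.30 and 0.30 on the log2 scale, beside -0.02, 0.01 and -0.06 over all genes tested. ATF3, a stress-induced partner of JUN proteins, rose in each line. The log2 rise of ATF3 was 1.63 ± 0.12 for MDA-MB-175 (adjusted p = 3.5e-08, limma) and 3.32 ± 0.34 for ZR-75-30 (adjusted p = 2.4e-07, limma), and in HCC1500 its mean went from 44.9 ± 3.66 to 92.1 ± 17.5 (SD, n = 4, adjusted p = 0.00208, limma). In ZR-75-30 ATF3 was weakly expressed in LG, with a mean of 3.85 ± 2.51 against 41.4 ± 2.54 in HG. The small MAF paralogs of MAFF rose as well. MAFG rose by 0.56 ± 0.07, 0.30 ± 0.06 and 0.92 ± 0.07 (adjusted p = 1.8e-05, 3.2e-04 and 9.3e-05, limma), and MAFK, named after its values were seen, rose by 0.47 ± 0.07, 0.46 ± 0.06 and 0.50 ± 0.14 (adjusted p = 1.5e-04, 6.8e-06 and 0.0366, limma). Without HG replicate 3, the HCC1500 rises were 0.88 for ATF3, 0.90 for MAFG and 0.36 for MAFK.

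Of 36 other immediate early genes found, 13 of 35 tested rose and 6 fell in MDA-MB-175, 16 of 34 rose and 6 fell in ZR-75-30, and 18 of 34 rose and 2 fell in HCC1500 (20 and 5 without HG replicate 3), beside 11.9% and 13.7%, 23.4% and 22.7%, and 7.46% and 13.0% of all genes (20.9% and 37.7% without it). The medians were 0.29, 0.20 and 0.75 on the log2 scale. GEM, a small GTPase, had log2 rises of 0.98 ± 0.15 for MDA-MB-175 (adjusted p = 1.5e-04, limma) and 2.84 ± 0.19 for ZR-75-30 (adjusted p = 7.2e-10, limma), and in HCC1500 its mean was 0.190 in LG and 6.01 in HG, a log2 rise of 2.51 (2.28 without HG replicate 3). HBEGF, an EGFR ligand, rose from 16.0 ± 3.20 to 63.0 ± 8.96 (SD, n = 4) in HCC1500 (adjusted p = 2.0e-04, limma), a log2 rise of 1.92 (1.83 without HG replicate 3). EGR3, an EGR1 paralog, fell in HCC1500 from 222 ± 6.51 to 115 ± 19.6 (adjusted p = 0.00162, limma), a log2 change of -0.96 (-0.84 without HG replicate 3), against the rise of EGR1.

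Feedback inhibitors of MAPK signaling were mixed, with 5 of 20 higher and 2 lower in MDA-MB-175, 7 and 8 for ZR-75-30, and 4 and 0 for HCC1500 (8 and 5 without HG replicate 3). All genes tested had 11.9% higher and 13.7% lower in the first line, 23.4% and 22.7% in the next, and 7.46% and 13.0% in HCC1500 (20.9% and 37.7% without that library). DUSP5, a nuclear ERK phosphatase, had log2 rises of 0.96 ± 0.06 for MDA-MB-175 (adjusted p = 2.0e-08, limma) and 1.22 ± 0.04 for ZR-75-30 (adjusted p = 5.5e-14, limma). SPRY4, an inhibitor of receptor tyrosine kinase signaling, fell by 0.57 ± 0.04 in ZR-75-30 (adjusted p = 3.3e-10, limma) and rose by 1.28 ± 0.30 in HCC1500 (adjusted p = 0.0188, limma, and 1.51 without HG replicate 3). Its mean went from 1528 to 1026 in ZR-75-30, but from 5.28 to 14.2 in HCC1500, where it was weakly expressed. FOS moved in the same directions in these lines, but SPRY4 was not called lower in MDA-MB-175, where FOS fell as well. Upstream kinases and SRF factors had 7 of 29 higher and 4 lower in MDA-MB-175, 8 and 9 for ZR-75-30, and 1 and 4 for HCC1500 (11 and 6 without HG replicate 3), beside the same shares of all genes, of which 23.4% and 22.7% are for ZR-75-30. SRF itself rose by 0.28 ± 0.04 in ZR-75-30 (adjusted p = 3.7e-05, limma), where FOS and EGR1 fell, and by 0.61 ± 0.14 in HCC1500 (adjusted p = 0.0173, limma, and 0.46 without HG replicate 3).

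Known AP-1 target genes had 14 of 26 tested higher and 3 lower in MDA-MB-175, 11 of 23 and 3 in ZR-75-30, and 4 of 23 and 4 in HCC1500 (5 of 22 and 10 without HG replicate 3). The shares of all genes were 11.9% and 13.7%, then 23.4% and 22.7%, then 7.46% and 13.0% (20.9% and 37.7% without it). The medians of the target genes were 0.52, 0.30 and -0.01, and -0.32 without that library. CD44, a hyaluronan receptor, rose by 1.56 ± 0.04 in ZR-75-30 (adjusted p = 1.2e-14, limma), while MT2A, a metallothionein, fell by 1.47 ± 0.07 there (adjusted p = 5.5e-12, limma). HMOX1, the heme oxygenase also known as a target of NRF2 and small MAF dimers, had log2 rises of 1.36 ± 0.09 for MDA-MB-175 (adjusted p = 1.1e-08, limma) and 1.93 ± 0.23 for HCC1500 (adjusted p = 7.1e-04, limma, and 1.67 without HG replicate 3). Stress chaperones were read as a sign of culture stress. In MDA-MB-175, 4 of 12 were higher and 1 lower, against 11.9% and 13.7% of all genes. In ZR-75-30 these counts were 3 and 1, against 23.4% and 22.7%. In HCC1500 they were 5 and 0, against 7.46% and 13.0%. Without HG replicate 3 they were 7 and 4, against 20.9% and 37.7%. The 11 proliferation genes that the study scores were lower throughout in ZR-75-30 and MDA-MB-175, and 9 of them in HCC1500 (11 without HG replicate 3), with medians of -0.83, -0.54 and -1.54 in that order. Among all genes, 22.7%, 13.7% and 13.0% were lower in the same order, and 37.7% in HCC1500 without HG replicate 3. The part of chaperone or proliferation changes in the AP-1 values was not tested.

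**Figure D5:**
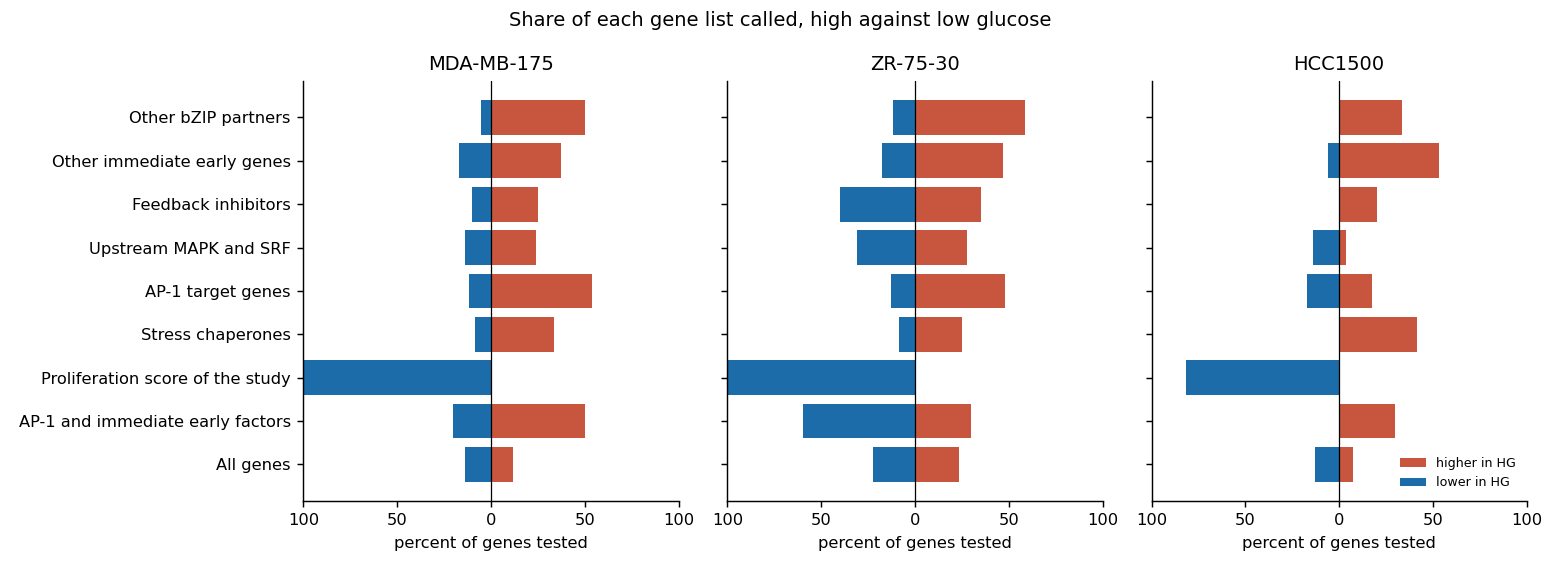
Percent of the tested genes of each list called higher (to the right) or lower (to the left) at high glucose in each line, with all genes at the bottom. The 10 factors were mostly lower in ZR-75-30, whereas the other bZIP factors and other immediate early genes were more often higher than lower in each line.

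The pattern of each gene over the 24 libraries was compared by Pearson correlation of log2(value + 1) after each line's mean was subtracted, among 13310 genes. These points share the glucose contrast and HG replicate 3, and the values are a description. Among the 10 genes, FOS and EGR1 had r = 0.918 (0.949 without HG replicate 3) and JUNB and IER2 had r = 0.962 (0.934). JUND and EGR1 had r = -0.602, and -0.896 without HG replicate 3. Outside the 10, the genes most like FOS were NOLC1 (0.948), EIF2S1 (0.922) and CYB5D1 (0.911). Those most like EGR1 were TOX3 (0.938), NOLC1 (0.928) and PPP2R1B (0.927). Once HG replicate 3 was left out, TOX3 (0.962), NOLC1 (0.959) and the gene ENSG00000131149 (0.953) led for FOS. NOLC1 was no longer among the 3 genes nearest to EGR1, which then were ENSG00000131149 (0.956), GRHL2 (0.947) and TOX3 (0.941).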

How the data were processed

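RNA from 24 cultures of 3 ER+ breast cancer lines was sequenced on an Illumina HiSeq. The authors deposited a normalized signal per gene and library, a read count divided by 1 factor per library, whose scaling is not stated. The study's methods describe trimming with Trimmomatic, alignment with TopHat to hg19 and Ensembl genes, DESeq2 for tests and CPM from edgeR's TMM factors, while the submitters' processing notes name edgeR and hg38. The build was not settled here. Whole reads were recovered for 100% of values (tolerance 0.01), and edgeR on them called 3576 genes in HCC1500, 7397 in ZR-75-30 and 4402 in MDA-MB-175.

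Each line was tested on its 8 libraries with limma 3.58.1 (R 4.3.3, intensity trend, pseudocount 1, genes at 0.5 or more in at least 4 libraries, Benjamini-Hochberg over all genes, threshold 0.05). Line differences and the interaction came from a model of 6 group means on 24 libraries. The code was tested on simulated data. Alternatives included edgeR 4.0.16 and DESeq2 1.42.0 on the recovered reads. Samples were grouped by line and medium from the labels.

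All 10 genes are named in every comparison, with TXNIP as a check, from each list up to 2 called genes with the largest rise and up to 2 with the largest fall, of which a part is printed, and the 3 genes most correlated with FOS, JUN and EGR1 (mean value at least 10), of which those for JUN are not reported here. The 10 genes and the lists were chosen with earlier results of these data known. Gene coordinates and exon lengths are from GENCODE v44lift37 on GRCh37. Depth limits weak genes, since 3 reads were worth 0.953 to 2.290 per library, and this covers counting error only. Replicate cultures of a group differed by more than counting noise, with a chi-square per degree of freedom of at least 1.827. Cultures with the same number in LG and HG did not deviate together (r from -0.054 to 0.164 over genes), so they were not treated as pairs. No column was left without a sample. The markers PTPRC, CD3E and PECAM1 were not found by symbol in the normalized expression table, so they could not be read.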

Additional observations from a re-analysis of the deposited data

Results flagged for a closer look

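The glucose change differed between lines, by the interaction test in limma, for FOS (adjusted p = 5.1e-11), EGR1 (7.2e-10), JUN (4.8e-07), FOSL2 (0.00105), FOSB (0.0011), IER2 (0.00196) and JUNB (0.00365). FOS and EGR1 were lower in 4 of 4 HG cultures than in every LG culture in ZR-75-30 and MDA-MB-175, but higher in 4 of 4 in HCC1500.

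A single library stood far from the others of its group in 8 of 60 sets of 4 cultures, where chance gives about 1 in 20, and the sets share libraries. The gap to the nearest library as a share of the group's range was 0.952 for IER2, 0.918 for JUND and 0.866 for FOSL2 in HCC1500 HG, each time at replicate 3. The other gaps were 0.895 for IER2 in MDA-MB-175 LG, 0.90 for JUNB and 0.84 for JUND in ZR-75-30 LG, and 0.851 for FOS and 0.859 for EGR1 in ZR-75-30 HG. FOS and EGR1 had their lowest ZR-75-30 HG value in the same culture, replicate 1, at 40.6 and 771, and both stayed lower in HG without it.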

How the results depend on the processing

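The count of the 10 genes called stayed within 1.5 times its value for each comparison under other pseudocounts, filters, scalings, edgeR, DESeq2, the replicate block, removal of the exon-length trend and the fit on all 24 libraries. The exception was HCC1500, where the count of 3 became 5 under median-of-ratios scaling and 6 under CPM scaling once HG replicate 3 was left out, settings added after seeing the data. Leaving out 1 library at a time gave 2 to 6 in HCC1500 (6 without HG replicate 3), 6 to 7 in MDA-MB-175 and 9 throughout in ZR-75-30. The culture number as a replicate block gave 2 called genes in HCC1500, 9 in ZR-75-30 and 7 in MDA-MB-175, and ended the EGR1 call in HCC1500 (adjusted p = 0.0809), which removal of the exon-length trend also ended (0.0582), while no other of these calls changed with the block. Over all HCC1500 genes, 3350 calls became 1964 with the block and 9504 without HG replicate 3, and 5316 interaction calls became 8809 without it. The MDA-MB-175 calls of FOSL1 (adjusted p = 0.0899) and JUND (0.289) did not pass in the fit on all 24 libraries. The causes were not tested.

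Changes of sign were limited to values that did not pass the test with all libraries, for the gene and line pairs computed. Without HG replicate 3, HCC1500 values turned for FOSL1 to -0.32 (edgeR and DESeq2), -0.12 (median-of-ratios) and -0.05 (CPM), for JUND to -0.07 (edgeR and DESeq2), -0.08 (median-of-ratios) and -0.17 (CPM), and for FOSL2 to 2.2e-03 (edgeR) and 0.01 (DESeq2 and median-of-ratios). In ZR-75-30 FOSL1 turned to -0.09 (edgeR) and -0.05 (DESeq2), and in MDA-MB-175 JUNB turned to -0.01 (CPM) and IER2 to 0.03 (exon-length trend removed). Under CPM scaling the low glucose differences of ZR-75-30 against MDA-MB-175 turned to -0.05 for FOSB and -0.13 for JUNB. With 1 library left out, log2 changes ran from -0.04 to 0.13 for FOSB and -0.12 to 0.09 for JUNB in MDA-MB-175, from -0.09 to 0.13 for FOSL1 in ZR-75-30, and in HCC1500 from -0.14 to 0.25 for FOSB, -0.17 to 0.46 for FOSL1, -0.19 to 0.01 for JUN, -0.19 to 0.42 for JUND and -3.5e-04 to 0.42 for IER2. The low glucose JUNB difference of ZR-75-30 against MDA-MB-175 ran from -0.04 to 0.18. Depth limits FOSL1, FOSB and, in HCC1500, EGR1 and MAFF.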

Other observations

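The EGR family divided the lines in another way than EGR1 alone. EGR3, named after its values were seen, stood at 222 ± 6.51 (SD, n = 4) in HCC1500 at low glucose, 35.2 ± 3.54 in MDA-MB-175 and 0.894 ± 0.712 in ZR-75-30, whereas EGR1 stood at 10.5 ± 1.35, 836 ± 37.1 and 1915 ± 63.6. EGR2 averaged no more than 5.05 in any group. At high glucose EGR3 fell in HCC1500 by 0.96 ± 0.13 on the log2 scale, and by 0.84 ± 0.06 without HG replicate 3 (adjusted p = 1.4e-09, limma). Its change was -0.37 ± 0.14 in MDA-MB-175 (adjusted p = 0.0693, limma).

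DUSP1 and DUSP5, feedback inhibitors of MAPK signaling, were chosen after their values were seen. DUSP1 changed by 0.02 ± 0.07 in MDA-MB-175 (adjusted p = 0.838, limma), rose by 0.32 ± 0.05 in ZR-75-30 (adjusted p = 1.3e-05, limma) and rose by 0.98 ± 0.16 in HCC1500 (adjusted p = 0.00337, limma, and 0.81 without HG replicate 3). DUSP5 changed by -0.30 ± 0.16 in HCC1500 (adjusted p = 0.245, limma) and by -0.48 ± 0.04 without HG replicate 3 (adjusted p = 2.3e-08, limma), against rises in the other lines. Whether these changes differed between lines was not tested.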
